A study of Mus musculus with 2 samples.

Results

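Fos, Fosb, Jun, Junb, Egr1, Atf3, Ier2 and Dusp1, which are immediate early genes, and Hspa1a and Hspa1b, the inducible heat shock protein 70 genes, were followed across the cell types of the newborn mouse kidney. They were chosen by name and are 10 of the 32285 genes counted. The data are 2 droplet single-cell RNA libraries of kidney at postnatal day 0. Both carry the genotype Rbpj c/+ ; Foxd1cre/+, where Rbpj is the DNA-binding factor of Notch signalling and Foxd1cre is a Cre recombinase expressed from Foxd1, a gene of kidney stromal progenitors. The sources used here do not explain the allele written c. They therefore form a single group with n = 2 and give no test of genotype. Whether a library comes from 1 animal or a pool is not given in the sources used here, so the spread between animals is not known. The p-values measure only how class sums differ between these 2 libraries, beyond a difference shared by all classes. That spread is pooled over the classes.

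Immediate early genes are transcribed within minutes of a stimulus, without new protein synthesis. Fos, Fosb, Jun and Junb encode subunits of the AP-1 transcription factor, Egr1 a zinc finger factor, Atf3 a stress-induced factor of the ATF/CREB family, Ier2 a small nuclear regulator and Dusp1 a phosphatase that switches off mitogen-activated protein kinases. Hspa1a and Hspa1b encode nearly identical cytosolic chaperones that heat shock factor induces. Such genes can also be switched on while a tissue is taken apart into single cells, and heat shock protein 70 is well known from the renal medulla, where urine is concentrated.

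A barcode counted as a cell from 3000 unique molecular identifiers (UMIs) and 500 detected genes upward, with no more than 20% of its UMIs mitochondrial, which gave 5529 in replicate 1 and 4206 in replicate 2. Their median depth was 15016 and 20007.5 UMIs, and 6 barcodes occurred as cells in both libraries. Marker genes other than the 10 placed 3691 and 2898 of these cells in named classes, each called "like" its type. Of the classes, 13 had at least 20 cells in both libraries and entered the tests. Check markers not used for the gates were highest in their own class for 7 of 7 in podocyte-like and proximal tubule-like cells, 6 of 7 in endothelial-like cells and 6 of 6 in mural-like cells. They were weakest for loop of Henle-like cells, with 2 of 5. The immune-like class was led by S100a9 and S100a8 together with C1qa, C1qb and Pf4, so it mixes neutrophil and macrophage genes. Ren1, the renin gene, led the mural-like class, followed by Myh11 and Acta2, so that class mixes renin cell and smooth muscle genes. Levels are counts per 1000000 UMIs (CPM), from counts summed over the cells of a class. A call means an adjusted p under 0.05 in edgeR's quasi-likelihood test, where each class is set against the average of the remaining 12 with equal weight. The p-values were adjusted over 17271 genes.

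Promoter letters are shown for 5 of the genes because they frame the clearest contrast of expression, between the paired heat shock genes and the immediate early genes Jun, Fos and Dusp1. RefSeq windows on GRCm38.p6 were matched by symbol, and 8 of the 9 genes looked up had one. The 150 bases before each start are printed 5′ to 3′ on the gene's strand, and capitals mark the heat shock element GAANNTTC, the CCAAT box, the TATA box TATAAA, the cyclic AMP response element TGACGTCA or its shorter form TGACG, searched on both strands, so ATTGG is a CCAAT box on the other strand.
Hspa1a, chr17:34972157-34972306, minus strand: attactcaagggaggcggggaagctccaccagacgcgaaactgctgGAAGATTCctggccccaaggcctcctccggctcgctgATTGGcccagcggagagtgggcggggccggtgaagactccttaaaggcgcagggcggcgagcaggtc
Hspa1b, chr17:34959239-34959388, minus strand: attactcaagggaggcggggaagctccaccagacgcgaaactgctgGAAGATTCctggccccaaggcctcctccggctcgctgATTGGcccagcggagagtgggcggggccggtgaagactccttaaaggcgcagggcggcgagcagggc
Jun, chr4:95052223-95052372, minus strand: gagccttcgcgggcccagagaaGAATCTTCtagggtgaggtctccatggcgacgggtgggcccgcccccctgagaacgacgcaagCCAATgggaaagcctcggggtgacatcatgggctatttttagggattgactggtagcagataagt
Fos, chr12:85473740-85473889, plus strand: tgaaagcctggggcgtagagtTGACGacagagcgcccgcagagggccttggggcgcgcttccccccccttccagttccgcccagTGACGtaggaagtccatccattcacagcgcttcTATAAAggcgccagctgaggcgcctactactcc
Dusp1, chr17:26508473-26508622, minus strand: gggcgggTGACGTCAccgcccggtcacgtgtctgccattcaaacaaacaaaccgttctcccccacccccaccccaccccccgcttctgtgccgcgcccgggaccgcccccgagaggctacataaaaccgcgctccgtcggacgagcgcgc

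In the 250 bases before the start, Hspa1a and Hspa1b were identical at 247 positions. Both held GAANNTTC starting 104 bases before the start and a CCAAT box at 67 bases. Jun also held GAANNTTC, at 128 bases, which 6.69% of all 32817 promoter windows of that length contain. Fos held TGACG at 129 and at 66 bases and TATAAA at 33 bases. Dusp1 held the full TGACGTCA at 143 bases, which 1.55% of windows contain, while TGACG alone occurs in 17.7%, TATAAA in 12.4% and CCAAT in 33.8%. The full element contains the shorter one, so these matches overlap. TTCNNGAA, the AP-1 site TGANTCA and the CArG box were also searched, had no match in these 5 windows of 250 bases, and occur in 7.16%, 6.75% and 1.47% of windows. The matches describe letters only.

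Across the 13 classes, 60 of 117 tests of the 9 testable genes were called, 33 higher and 27 lower. Over all genes 41.5% of such tests were called, 24.7% higher and 16.9% lower, so calls were frequent between these classes. By class, 6 of 9 genes were called in immune-like cells (44.0% of all genes), ureteric or collecting duct-like cells (36.4%) and proximal tubule-like cells (53.7%). Cells resembling nephron progenitors (50.3%), the early nephron (48.5%), the loop of Henle (41.3%), the distal convoluted or connecting tubule (42.9%), intercalated cells (41.0%), endothelium (48.6%) and mural cells (39.2%) had 5 calls each. Podocyte-like cells had 4 (44.0%), stroma-like cells 2 (44.2%) and erythroid-like cells 1 (5.82%). All 6 calls in immune-like cells and all 5 in endothelial-like cells were higher, against 23.8% and 30.4% of all genes, and all 5 in nephron progenitor-like cells were lower, against 20.3%. Erythroid-like cells had 0 counts of Hspa1a and Hspa1b and are in the reference of every other class. Neither gene then had a stable estimate in podocyte-like, nephron progenitor-like, early nephron-like or immune-like cells, so a lower call was hardly possible. Without the erythroid-like class, both genes were called lower in each of these. Hspa1b in endothelial-like cells also had no stable estimate. The counts and directions above depend on this reference. Each comparison reuses the other classes as its reference, so they are not independent. Fosb had 49 and 32 counts in all cells and fell below the filter. The heat map of levels shows Jun highest in podocyte-like cells, followed by endothelial-like cells, and Ier2 and Dusp1 highest in endothelial-like cells. Egr1 was highest in mural-like and stroma-like cells, and Hspa1a with Hspa1b along the distal nephron and collecting system.

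**Figure D1:**
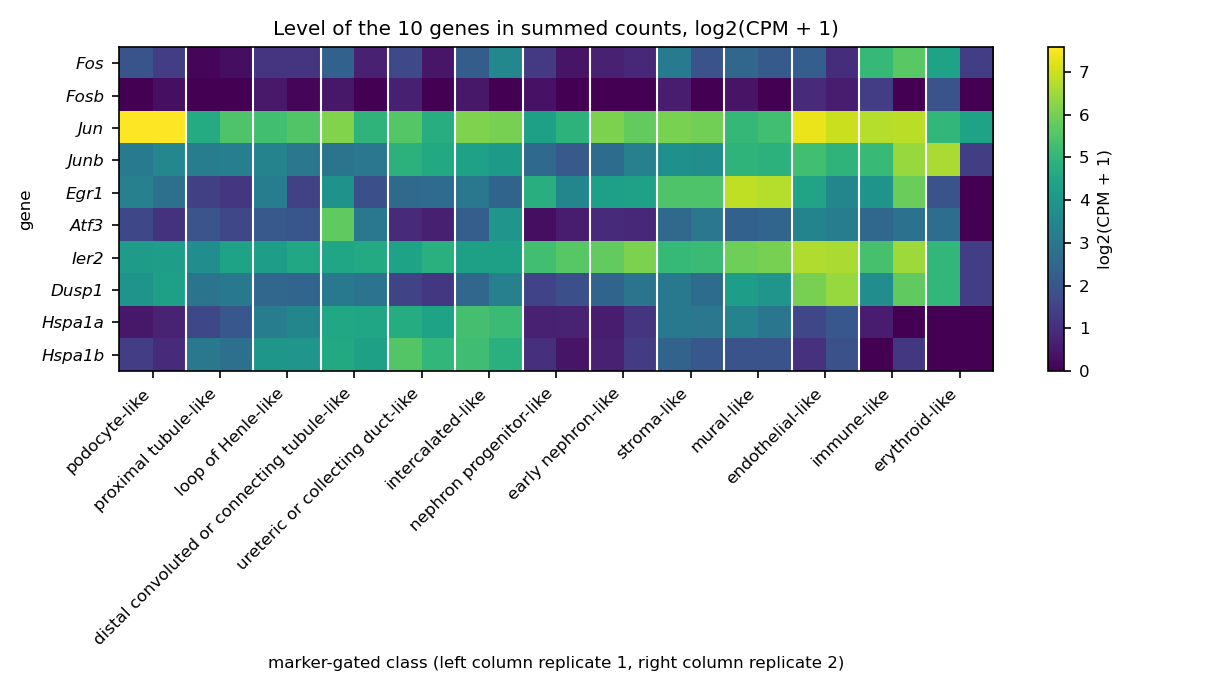
Level of each gene, as log2(CPM + 1) of summed counts, in the 13 marker-gated classes; each class has a column for replicate 1 and one for replicate 2. Jun is highest in the podocyte-like columns (191 and 187 CPM), Egr1 in mural-like columns (114 and 106 CPM) and Hspa1a in intercalated-like columns (39.3 and 34.9 CPM).

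Jun (chromosome 4, 95049034 to 95052222, minus strand, 1 exon) was highest in podocyte-like cells, the filtering cells of the glomerulus. It measured 191 CPM in replicate 1 and 187 CPM in replicate 2, against 66.6 and 59.1 CPM over all cells. Podocyte-like cells were 1.73 ± 0.19 higher (log2, SE) than the mean of the others (adjusted p = 5.01e-07, edgeR). Both libraries of podocyte-like cells lay above both libraries of the next class. Endothelial-like cells followed with 164 and 125 CPM, 1.38 ± 0.19 higher, and immune-like cells with 106 and 110 CPM, 0.95 ± 0.24 higher. These 3 classes were separate from each other and from the rest. From intercalated-like cells (68.0 and 64.6 CPM) downward, each class overlapped its neighbour in the order. Distal convoluted or connecting tubule-like cells differed most between libraries, with 70.4 and 29.6 CPM, and 1 cell held 46.5% of the counts in replicate 1. The lowest mean was in nephron progenitor-like cells, at 19.0 and 29.1 CPM, which were 1.49 ± 0.25 lower. Mural-like, ureteric or collecting duct-like and proximal tubule-like cells were also called lower, by 0.90, 0.84 and 0.63 on the log2 scale. The Jun call in proximal tubule-like cells was lost in 3 of 13 alternatives, among them at most 10% mitochondrial UMIs.

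Jun was spread over many podocyte-like cells. After every cell was thinned to 3000 UMIs, 40.8% of podocyte-like cells in replicate 1 (95% exact binomial interval 35.8 to 46.0%) and 46.1% in replicate 2 (38.9 to 53.4%) had a Jun UMI. Without thinning the shares were 75.5% and 82.4%. Endothelial-like cells gave 30.3% and 27.6%, and proximal tubule-like cells 7.51% and 11.2%. Barcodes of 300 to under 1000 UMIs were taken to hold mostly free RNA, which was not tested. They carried Jun at a rate that would mark 9.87% and 10.2% of barcodes at the same depth. The intervals of the proximal tubule-like shares included this background, and those of podocyte-like and endothelial-like cells lay above it. Such intervals cover counting error only. The background, called the free RNA rate below, holds for barcodes of free RNA alone. Outside erythroid-like cells, the haemoglobin share of UMIs was a median over classes of 10.3% and 15.6% of that in such barcodes. It ran from 1.18% in intercalated-like cells of replicate 1 to 160% in mural-like cells of replicate 2.

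**Figure D2:**
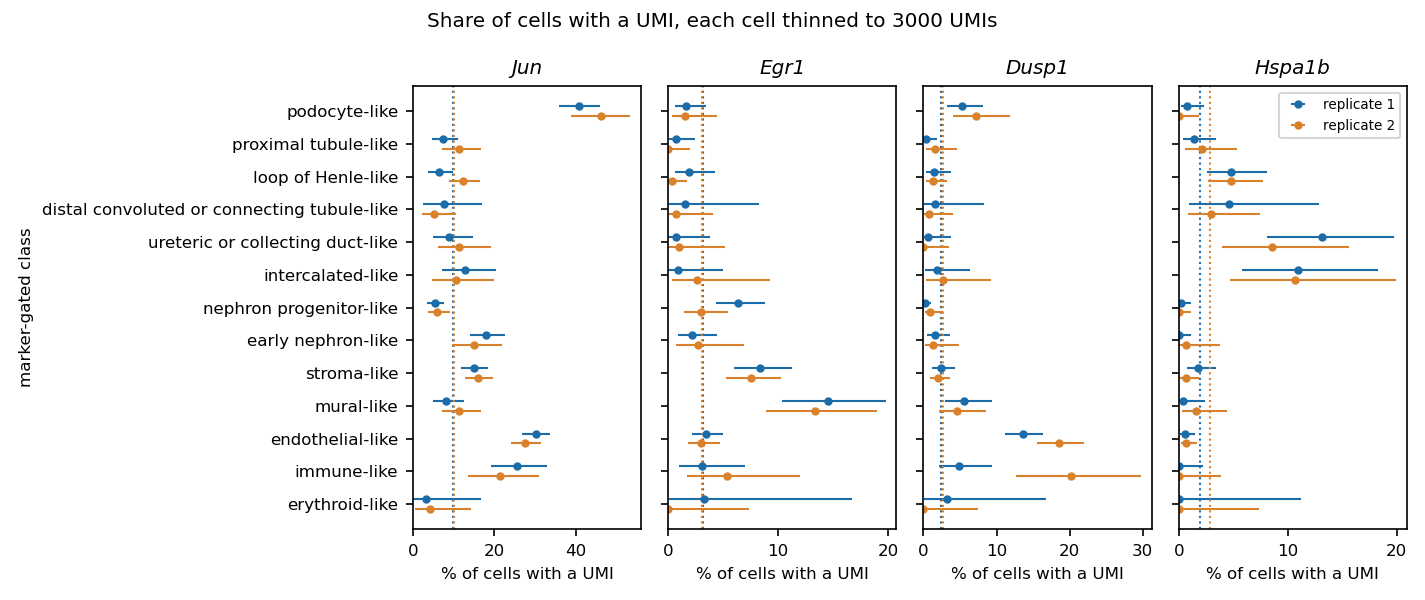
Percent of cells with at least 1 UMI of Jun, Egr1, Dusp1 or Hspa1b after thinning each cell to 3000 UMIs; points are replicates, bars 95% exact binomial intervals, and dotted lines the share that the RNA of barcodes with 300 to under 1000 UMIs would give. Jun stands above its dotted lines in podocyte-like cells (40.8% and 46.1%), Egr1 in mural-like cells (14.6% and 13.4%), Dusp1 in endothelial-like cells (13.6% and 18.6%) and Hspa1b in ureteric or collecting duct-like cells (13.1% and 8.57%).

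The level of Jun in podocyte-like cells went with the depth of the cell. In replicate 1 it was 319 CPM in cells under 10000 UMIs, 238 CPM from 10000 to under 30000 UMIs and 125 CPM from 30000 UMIs. Replicate 2 gave 403, 223 and 128 CPM in the same ranges, the first from 31 cells. In endothelial-like cells no such fall was seen: the 3 ranges gave 150, 145 and 184 CPM in replicate 1 and 124, 125 and 125 CPM in replicate 2. At 30000 UMIs or more, podocyte-like cells were thus below endothelial-like cells in replicate 1 and their counting intervals overlapped in replicate 2. Podocyte-like cells had a median of 9414 and 14341 UMIs, below the median of all cells. The part of depth, or of what varies with it, in the level of Jun was not tested. With cells of at least 10000 UMIs only, Jun remained called higher in podocyte-like cells.

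**Figure D3:**
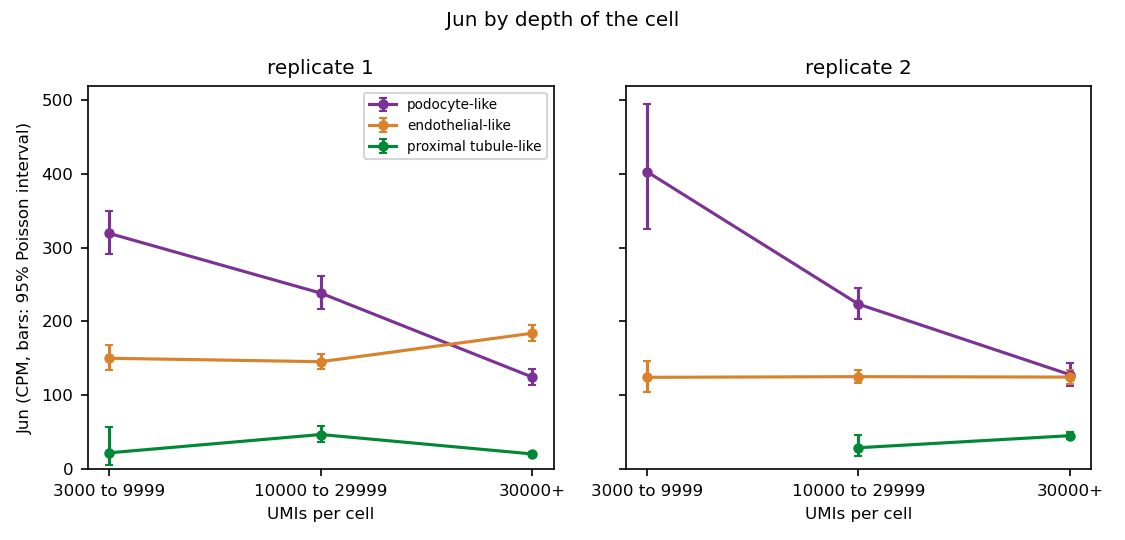
Jun in CPM (vertical axis, from 0) in podocyte-like, endothelial-like and proximal tubule-like cells divided by UMIs per cell, 1 panel per replicate; bars are 95% Poisson intervals of the summed count, and ranges with fewer than 20 cells are left out. The podocyte-like line falls from 319 to 125 CPM in replicate 1 and from 403 to 128 CPM in replicate 2.

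Fos (chromosome 12, 85473890 to 85477273, plus strand, 4 exons) was highest, among the tested classes, in immune-like cells. Immune-like cells measured 32.8 and 48.9 CPM, from 62 and 72 counts, and were 4.38 ± 0.41 higher (log2, SE; adjusted p = 4.05e-08, edgeR). Both libraries lay above every other tested class, and 5.49% and 4.26% of these cells had a Fos UMI after thinning, against a free RNA rate of 1.18% and 0.539%. Scrublet marked 22 of the 164 and 15 of the 94 immune-like cells as doublets, a larger share than in podocyte-like cells (17 of 375 and 7 of 193). With those cells removed, the call in immune-like cells was kept. Intercalated-like cells, the acid-secreting and base-secreting cells of the collecting duct, were called higher by 1.63 ± 0.50, but their libraries differed, with 3.73 and 10.7 CPM.

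The lowest Fos level was in proximal tubule-like cells, with 1 and 2 counts in 12271166 and 9161004 UMIs, or 0.0815 and 0.218 CPM. They were called lower, by 4.19 ± 0.93 on the log2 scale (SE; adjusted p = 0.000756, edgeR). This lies below the free RNA level of 3.96 and 1.80 CPM. Podocyte-like cells, with 2.93 and 1.60 CPM, were not called (adjusted p = 0.83, edgeR), and the intervals of their shares of cells with a Fos UMI, 1.07% and 1.55%, included the free RNA rate. Lower calls were also made in cells like nephron progenitors, by 1.71, and in early nephron-like cells, by 2.08 on the log2 scale. The first was lost in 3 of 12 alternatives and the second in 1 of 12. In the small urothelium-like class, of 17 and 10 cells, Fos reached 104 and 54.0 CPM. That class was not tested, and Scrublet marked 10 and 4 of its cells.

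Fosb (chromosome 7, 19302696 to 19310051, minus strand, 4 exons), the close relative of Fos, was at 0.334 and 0.248 CPM over all cells. Endothelial-like cells gave the most counts, 12 and 6. It was at 0 in both libraries of proximal tubule-like and early nephron-like cells, and no order of classes can be read from so few counts. Of the 32 Fosb counts in replicate 2, 40.6% came from 1 cell.

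Junb (chromosome 8, 84974484 to 84978718, minus strand, 1 exon in its longest transcript) encodes an AP-1 subunit that often opposes Jun. It was high in immune-like cells, with 33.4 and 83.6 CPM, and in endothelial-like cells, with 38.0 and 29.5 CPM. Mural-like cells, gated on genes of contractile and renin cells around vessels, had 29.3 and 28.6 CPM. These 3 classes were called higher, immune-like cells by 2.003 ± 0.290, endothelial-like cells by 1.16 ± 0.23 and mural-like cells by 0.84 ± 0.29 on the log2 scale (SE; edgeR). The mural-like call was lost at no more than 10% mitochondrial UMIs (adjusted p = 0.0786, edgeR), and both the mural-like and endothelial-like differences turned negative, at -1.99 and -1.93, when free RNA was subtracted with the profile of barcodes of 10 to 100 UMIs. Erythroid-like cells were called higher too, yet replicate 1 gave 96.9 CPM and replicate 2 gave 1.66 CPM, and 18 of the 34 counts in replicate 1 were in 1 cell. Without the highest cell of each class and library the erythroid-like call was lost (adjusted p = 0.12, edgeR). Podocyte-like cells (7.98 and 10.5 CPM) and proximal tubule-like cells (8.23 and 8.62 CPM) were called lower, and overlapped each other. The call in proximal tubule-like cells was lost in 7 of 13 alternatives. Ureteric or collecting duct-like cells, at 28.3 and 23.3 CPM, lay above all other tubule-like classes without being called. Urothelium-like cells gave 274 and 78.4 CPM.

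Egr1 (chromosome 18, 34859823 to 34864984, plus strand, 2 exons) was highest in the stromal lineages. Mural-like cells measured 114 and 106 CPM, and stroma-like cells 44.0 and 44.3 CPM. Mural-like cells were 3.56 ± 0.32 higher (log2, SE; adjusted p = 3.17e-08) and stroma-like cells 2.14 ± 0.35 higher (adjusted p = 5.58e-05), both by edgeR. No library of another tested class reached the mural-like values. Immune-like cells were called higher from 14.3 and 56.4 CPM, where replicate 2 was far above replicate 1. Junb, Ier2 and Dusp1 were also higher in replicate 2 of that class. Proximal tubule-like cells, with 1.71 and 1.31 CPM, were the only class called lower (by 2.82), a call lost in 3 of 13 alternatives. After thinning, 14.6% and 13.4% of mural-like cells had an Egr1 UMI, and the free RNA rate was 3.18% and 3.12%. Within mural-like cells the level was 139 CPM at no more than 5% mitochondrial UMIs and 83.4 CPM at 5 to 10% in replicate 1, and 119 and 41.9 CPM in replicate 2. In podocyte-like cells, at 8.91 and 5.94 CPM, 1 cell gave 31.3% and 38.5% of the counts.

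In some classes and libraries, Egr1 tended to occur in the same cells as Fos, Junb or Ier2. In thinned cells, 387 comparisons were made of the share of cells with a gene among cells that did or did not have another, within a class and library. In 11 of them the 95% exact binomial intervals did not overlap, always with the higher share in cells that had the other gene, and all 11 involved Egr1. Some are the same pair read in both directions, so they come from 7 distinct pairs in a class and library. A gene could be the other gene only where at least 20 cells had it and at least 20 did not. Fos, Fosb, Hspa1a and Hspa1b never met this. The share of such separations among pairs of all genes was not measured. In mural-like cells of replicate 1, 41.2% of cells with an Egr1 UMI had Ier2, against 7.04% of those without. Replicate 2 gave 38.5% against 13.1%. Cells are not replicates, and the thinning does not remove differences in cell quality.

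Ier2 (chromosome 8, 84661331 to 84662852, minus strand, 1 exon) was led by endothelial-like cells, with 101.4 and 96.5 CPM. They were 1.69 ± 0.13 higher (log2, SE; adjusted p = 2.72e-09, edgeR), and both libraries exceeded every other tested class. Immune-like, mural-like and early nephron-like cells were called higher by 0.97, 0.86 and 0.81, and their values overlapped each other. All 6 tubule, collecting duct and podocyte classes were called lower: podocyte-like cells with 17.3 and 18.1 CPM, proximal tubule-like cells with 12.06 and 19.98 CPM, and the other 4 classes of tubule and duct between 17.5 and 27.3 CPM. The call in distal convoluted or connecting tubule-like cells was lost in 8 of 12 alternatives. In these 6 classes the level lay below the free RNA level of 25.3 and 32.5 CPM in each library.

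Dusp1 (chromosome 17, 26505590 to 26562128, minus strand, 3 exons in its longest transcript) was highest in endothelial-like cells. These measured 64.5 and 83.4 CPM. They were 3.22 ± 0.18 higher (log2, SE; adjusted p = 1.98e-11, edgeR), and both libraries lay above every other tested class. Immune-like cells were called higher from 12.2 and 51.6 CPM, and podocyte-like cells from 14.1 and 18.7 CPM, by 0.78 ± 0.27 (adjusted p = 0.0219, edgeR). Podocyte-like and mural-like values (17.6 and 14.4 CPM) overlapped. The lowest levels were 1.91 and 1.34 CPM in ureteric or collecting duct-like cells, called lower by 2.75, and 1.86 and 2.62 CPM in nephron progenitor-like cells, called lower by 2.31. Endothelial-like cells kept 59.0, 58.1 and 71.5 CPM over the ranges of depth in replicate 1 and 71.5, 82.9 and 86.7 CPM in replicate 2.

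Atf3 (chromosome 1, 191170296 to 191218039, minus strand, 4 exons) rested on single cells in several classes, with over 50% of the counts in 1 cell in 6 of 26 sums. Distal convoluted or connecting tubule-like cells had 52.1 CPM in replicate 1 and 7.24 CPM in replicate 2, but 120 of the 126 counts in replicate 1 were in 1 cell, without which the level was 2.66 CPM. The call in that class, 3.32 ± 0.41 higher (log2, SE; adjusted p = 1.89e-06, edgeR), became 2.06 (adjusted p = 0.00202) without each class's highest cell. In proximal tubule-like cells of replicate 1, 30 of 37 counts were in 1 cell, and in intercalated-like cells of replicate 2, 36 of 56. In endothelial-like cells the libraries were close, at 9.63 and 8.26 CPM, and the class was called 1.53 ± 0.40 higher (adjusted p = 0.00374, edgeR). Lower calls in the early nephron-like, progenitor-like and collecting duct-like classes rested on 3 to 13 counts a library, and these 3 calls were lost without the highest cells.

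Hspa1a (chromosome 17, 34969190 to 34972156, minus strand, 1 exon) and Hspa1b (chromosome 17, 34956436 to 34959238, minus strand, 1 exon) lie 9951 bases apart and were high in the collecting system. Intercalated-like cells measured 39.3 and 34.9 CPM of Hspa1a and 37.3 and 27.1 CPM of Hspa1b. Ureteric or collecting duct-like cells measured 24.8 and 20.2 CPM of Hspa1a and 45.7 and 31.7 CPM of Hspa1b. Distal convoluted or connecting tubule-like cells measured 22.3 and 21.3 CPM of Hspa1a and 23.2 and 18.7 CPM of Hspa1b. Loop of Henle-like cells followed with 8.04 and 10.2 CPM of Hspa1a and 15.2 and 14.6 CPM of Hspa1b. All 4 classes were called higher for both genes, from 2.09 ± 0.29 for Hspa1a in loop of Henle-like cells to 4.24 ± 0.21 for Hspa1a in intercalated-like cells (adjusted p = 1.62e-11, edgeR). Over 13 alternatives these differences ran from 1.45 to 3.76 and from 3.61 to 6.04, ranges that the SE does not cover. Across the 26 sums of class and library, log2(CPM + 1) of the pair had a Pearson r of 0.92, a description over sums that share libraries and depth.

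The order of classes was not the same for the pair. For Hspa1a, both libraries of intercalated-like cells lay above both of the collecting duct-like class. For Hspa1b these classes overlapped. Proximal tubule-like cells were called higher for Hspa1b (7.25 and 5.89 CPM, 1.63 ± 0.44, adjusted p = 0.00396) but not for Hspa1a (2.12 and 3.17 CPM, adjusted p = 0.85), both by edgeR. Stroma-like cells (7.33 and 6.998 CPM) and mural-like cells (9.44 and 6.80 CPM) were called higher for Hspa1a and not for Hspa1b, where they had 4.29 and 3.18 CPM and 2.83 and 2.83 CPM. The mural-like call was lost in cells of at least 10000 UMIs. Both Hspa1a calls were lost when free RNA was subtracted with the profile of barcodes of 10 to 100 UMIs. Against a free RNA level of 6.27 and 8.54 CPM of Hspa1a, both classes lay above it in replicate 1 and below it in replicate 2. The Hspa1b difference in stroma-like cells, 0.39 ± 1.12 (log2, SE), was taken against a reference that includes erythroid-like cells, which had 0 counts. Its SE is therefore not a reliable measure of precision. Differences between the genes in these responses were not tested. Their transcripts are hard to tell apart in the coding part, which is 99.4% identical, and 58.8% of 50-base windows of the Hspa1a transcript recur in Hspa1b. In the last 500 bases, near the 3′ end that was sequenced, no such window is shared.

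The share of cells with Hspa1a was above the free RNA rate in intercalated-like cells. In thinned intercalated-like cells 13.6% and 14.7% had an Hspa1a UMI, against a free RNA rate of 1.86% and 2.53%. Unthinned shares were 72.7% and 73.3%. In both distal convoluted or connecting tubule-like libraries, both loop of Henle-like libraries and replicate 2 of ureteric or collecting duct-like cells, the intervals of the thinned share of Hspa1a included the free RNA rate. That rate is for barcodes of free RNA alone, so including it does not show that these counts were free RNA. Over all cells the share was 1.36% and 1.38%, below that rate. Podocyte-like cells stood at the other end with 3 and 3 counts of Hspa1a and 12 and 4 of Hspa1b, or 0.399 and 0.685 CPM and 1.60 and 0.914 CPM. Erythroid-like cells had 0 counts of both genes, which allows levels of up to 8.55 and 4.98 CPM (3 counts). With that class in the reference, no stable estimate was had for podocyte-like, nephron progenitor-like, early nephron-like or immune-like cells. When the erythroid-like class was left out, an alternative added after the data were seen, both genes were called lower in podocyte-like cells, by 3.12 (adjusted p = 0.000133) and 1.88 (adjusted p = 0.00326) on the log2 scale in edgeR. Both genes were then called lower in the other 3 of these classes too. The higher calls of Hspa1a and Hspa1b were kept without that class, but their sizes depend on it: Hspa1a in intercalated-like cells was 3.61 higher without erythroid-like cells, and 3.61 to 6.04 higher over all 13 alternatives. Among the tested classes, the 4 with the most Hspa1a and Hspa1b had high median mitochondrial shares, from 8.01% to 14.5%, and podocyte-like cells had 3.52% and 3.21%. Proximal tubule-like cells, at 11.3% and 9.13%, had 2.12 and 3.17 CPM of Hspa1a and 7.25 and 5.89 CPM of Hspa1b. The small urothelium-like class, at 5.77% and 5.29%, had 12.1 and 13.5 CPM of Hspa1a, from 5 and 5 counts. Its Hspa1b was 9.69 and 21.6 CPM, from 4 and 8 counts, and Scrublet marked 10 of its 17 and 4 of its 10 cells. The link of mitochondrial share with these genes was not tested. Within ureteric or collecting duct-like cells, Hspa1b was 48.0 CPM at 5 to 10% mitochondrial UMIs and 38.3 CPM above 10% in replicate 1, and 31.8 and 31.7 CPM in replicate 2. Within loop of Henle-like cells it was 10.4 and 19.4 CPM in replicate 1 and 12.8 and 17.0 CPM in replicate 2.

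Podocyte-like and proximal tubule-like cells, neighbours along the nephron, were compared directly. Against the other classes, 4 of 9 genes were called in podocyte-like cells. Jun and Dusp1 were higher, as were 23.8% of all genes, and Junb and Ier2 were lower, as were 20.1%. In proximal tubule-like cells 6 of 9 were called. Hspa1b was higher, as were 32.0% of all genes, and Fos, Jun, Junb, Egr1 and Ier2 were lower, as were 21.7%. Between the 2 classes 6 of 9 were called and 56.7% of all genes were called, so the number of calls is near the background. Of these, 4 were higher in podocyte-like cells, as were 26.8% of all genes, and 2 were lower, as were 29.9%. The 4 called higher, Fos, Jun, Egr1 and Dusp1, are among the 7 immediate early genes tested, and the 2 called lower are the heat shock genes.

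Jun was 2.17 ± 0.31 higher in podocyte-like than in proximal tubule-like cells (log2, SE; adjusted p = 6.78e-06, edgeR), from 191 and 187 CPM against 24.2 and 44.0 CPM. Fos rested on 29 counts against 3, a ratio of 17.4 with a 95% exact interval of 5.40 to 89.4 for counting error only (adjusted p = 0.0127, edgeR). Its log2 difference was 3.602 with both libraries, 2.52 without replicate 1 and 4.63 without replicate 2. Egr1 was 1.98 ± 0.76 higher and Dusp1 0.90 ± 0.36 higher, with adjusted p of 0.0319 and 0.0402 in edgeR. In each of these 4 genes both podocyte-like libraries exceeded both proximal tubule-like libraries. Hspa1a was 2.61 ± 0.53 lower (adjusted p = 0.000371) and Hspa1b 2.62 ± 0.49 lower (adjusted p = 0.000161), both by edgeR and again with no overlap. The share of all genes whose libraries separate in this way was not counted, so the separation adds nothing to the calls. For Fos, Egr1 and Hspa1a, both classes lay below the free RNA level in both libraries. That level was 10.8 and 10.6 CPM for Egr1 and 6.27 and 8.54 CPM for Hspa1a. For Hspa1b, at 6.55 and 9.59 CPM, only replicate 1 of proximal tubule-like cells lay above it. Junb, Atf3 and Ier2 were not called, at -0.20 ± 0.42, -0.89 ± 0.79 and -0.12 ± 0.24 on the log2 scale. Proximal tubule-like cells were deeper, with a median of 37046 and 43420 UMIs, and had 11.3% and 9.13% mitochondrial UMIs. Within them Jun was 43.5 CPM at 5 to 10% mitochondrial UMIs and 11.5 CPM above 10% in replicate 1, and 48.6 and 36.8 CPM in replicate 2. With at most 10% mitochondrial UMIs the calls of Fos, Egr1 and Hspa1a were lost, and without Scrublet doublets those of Fos, Egr1 and Dusp1, which left 3 calls in either case.

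**Figure D4:**
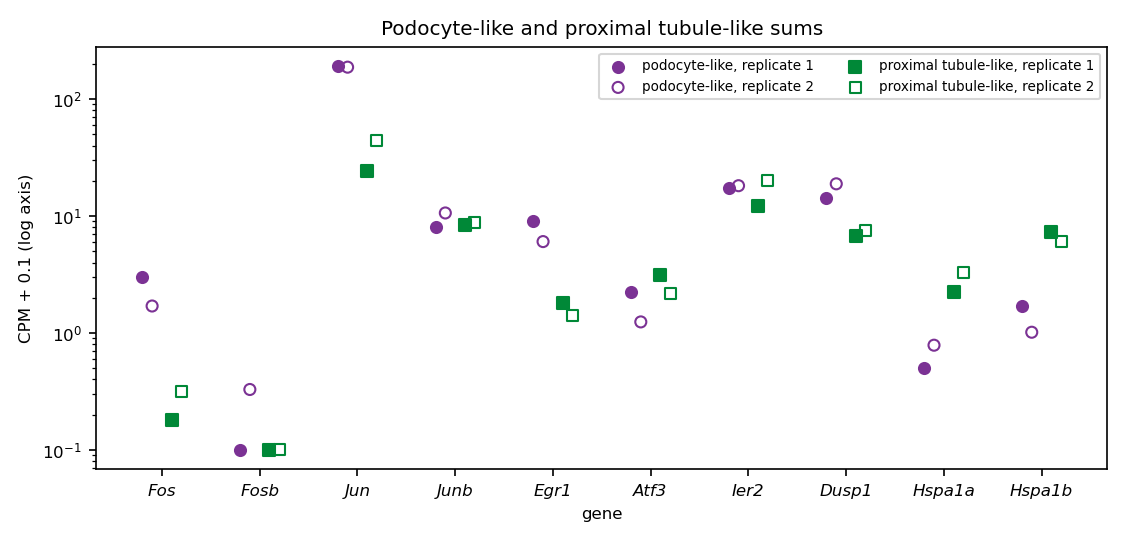
Level of the 10 genes in podocyte-like (circles) and proximal tubule-like (squares) sums, as CPM + 0.1 on a log axis, filled for replicate 1 and open for replicate 2. Jun is higher in podocyte-like cells (191 and 187 against 24.2 and 44.0 CPM), while Hspa1b is lower (1.60 and 0.914 against 7.25 and 5.89 CPM).

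Other genes of these families were read from lists chosen by function. Of 32 further immediate early genes, 30 were tested between podocyte-like and proximal tubule-like cells: 15 were higher, 2 lower and 13 not called, where 26.8% of all genes were higher and 29.9% lower, with a median log2 difference of 1.10 against 0.02 over all genes. The largest were Nr4a1, an orphan nuclear receptor (7.18 and 7.54 CPM against 0 and 1 count), Ccn2, a matricellular growth factor (40.3 and 82.9 against 3.34 and 1.53 CPM), Ier3 (78.8 and 83.4 against 3.59 and 3.49 CPM) and Socs3, a brake on cytokine signalling (7.98 and 8.23 against 0.652 and 0.218 CPM). Myc and Dusp6 were the 2 called lower, by 3.47 and 2.22 on the log2 scale. Of 28 chaperone and proteostasis genes, 27 were tested: 5 were higher and 15 lower, against the same 26.8% and 29.9% of all genes, with a median log2 difference of -0.47. Those lower were led by the mitochondrial chaperonins Hspd1 (139 and 135 against 793 and 940 CPM) and Hspe1 (133 and 163 against 681 and 823 CPM), beside the higher mitochondrial share of proximal tubule-like cells, whose part in this was not tested. Those higher were led by the small heat shock proteins Hspb8 (18.0 and 29.7 against 0.244 and 0.327 CPM) and Cryab (199 and 316 against 6.36 and 17.7 CPM). Hspb1, a further small heat shock protein, was 2.47 higher. All 3 small heat shock protein genes of the list were thus higher, while Hspa8, Hsph1, Bag3 and Fkbp4 were lower by 0.89, 1.42, 1.56 and 1.62.

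The genes whose levels ran most like each member over the 26 sums were found by Pearson correlation of log2(CPM + 1), among genes with a mean of at least 10 CPM. The closest to Hspa1b were Glb1l2 (0.94), Rab25 (0.93) and Foxq1 (0.93), and to Hspa1a Ccdc141 (0.91). For Ier2 they were Cenpt (0.92) and Cep250 (0.91), for Egr1 Flna (0.89), for Dusp1 S100a13 (0.85), for Jun Dnase1l1 (0.83) and for Junb Pparg (0.83). The best values for Fos and Atf3 were lower, Arhgap45 at 0.81 and Coq10b at 0.72. These are descriptions over sums that share libraries and depth.

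Reads from overlapping genes could not be separated with what is known here. Jun overlaps Junos, Junb overlaps Prdx2, Dusp1 overlaps Ergic1 and Hspa1a overlaps Gm20481, each on the other strand and each counted as a gene of its own. Dusp1 also overlaps AC122252.1 on the same strand, which is counted as well. Whether counting used the strand is not given in the sources used here.

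The immediate early genes were also measured in barcodes outside the cells. At 10 to 100 UMIs their summed level was 3104 CPM in replicate 1 and 1595 CPM in replicate 2, and in cells it was 161 and 158 CPM. Barcodes removed for over 20% mitochondrial UMIs gave 37.9 and 48.7 CPM, below the cells.

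**Figure D5:**
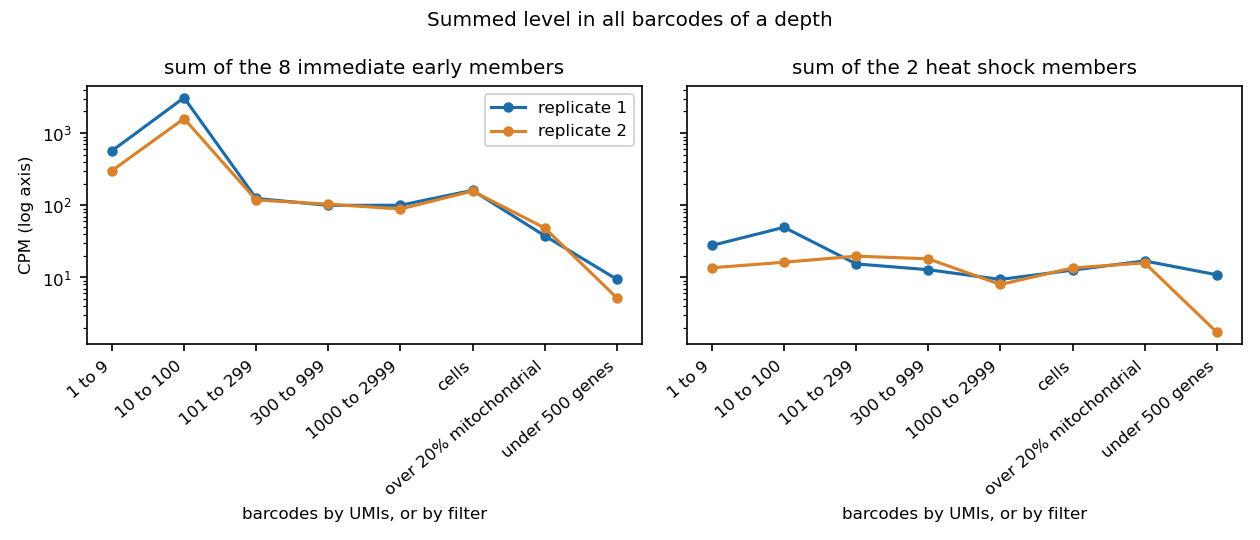
Summed CPM (log axis) of the 8 immediate early genes (left) and of Hspa1a and Hspa1b (right) in all barcodes of a range of UMIs, in cells, and in barcodes removed for mitochondrial share or few genes, by replicate. The immediate early sum peaks at 10 to 100 UMIs (3104 and 1595 CPM) and is 161 and 158 CPM in cells.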

How the data were processed

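The deposited matrices hold raw counts of UMIs per gene and barcode, unfiltered. Per the file headers they are in the Cell Ranger 4 format, and the submitters' processing notes name Cell Ranger 6.0.1 and mm10. The annotation behind the counts is not given in the sources used here. Coordinates are from GENCODE M21 (GRCm38).

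Cells were assigned to classes by marker gates: at least 3 UMIs of at least 2 markers, 3-fold over the expected number, Poisson p at most 0.0001. Cells meeting gates of unrelated types were left out (20 and 21), and 1805 and 1278 met no gate. Sums of 13 classes in 2 libraries were fitted in edgeR 4.0.16 (R 4.3.3): a design of 1 mean per class with a library block, TMM factors, genes kept by filterByExpr, 12 residual degrees of freedom, two-sided tests and Benjamini-Hochberg adjustment. Genes used as gates were left out of the adjustment. The SE beside a log2 difference is its absolute size divided by the square root of the F statistic of its test. It is not a fitted standard error, and it is unreliable where a class in the comparison had 0 counts. Same-numbered sums come from 1 library, which is what pairs them. On simulated counts for podocyte-like cells against the others, 84% of genes changed 2-fold and 96% of those changed 4-fold were recovered, and 9 of 15758 unchanged genes were called. All simulated classes shared the same mean profile apart from the changed genes, which were picked above a minimum mean count. These rates therefore need not hold for the real classes, for genes with few counts or for counts held by 1 cell. Replicates were numbered by accession and the number carries no other meaning. Members, lists and gates were chosen with earlier results of these data known. All 10 members are described. From the wider lists, the 4 called genes with the largest change in each list were named by rule, as were up to 3 genes most like each member by correlation; Myc, Dusp6, Hspb1, Hspa8, Hsph1, Bag3 and Fkbp4 were named after their values were seen. Python 3.11.15, numpy 2.4.6, scipy 1.17.1, pandas 2.3.3, scanpy 1.11.5 (Scrublet) and DESeq2 1.42.0 were used.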

Additional observations from a re-analysis of the deposited data

Results flagged for a closer look

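A strong signal of the immediate early genes lay in barcodes of 10 to 100 UMIs, which are not among the cells compared and serve only as a free RNA profile in 1 alternative. In replicate 1, 55711 such barcodes held 1209405 UMIs, and in replicate 2, 24750 held 553610. Summed over the 8 immediate early genes the level there was 3104 CPM in replicate 1 and 1595 CPM in replicate 2. Cells gave 161 and 158 CPM, and barcodes of 300 to under 1000 UMIs, taken here as free RNA, 99.9 and 104 CPM. Fos, which encodes an AP-1 subunit, was at 883 and 638 CPM against 3.02 and 2.21 CPM in cells, and Jun at 601 and 502 CPM against 66.6 and 59.1 CPM. The Fos counts came from 1028 and 327 barcodes, none with more than 3.

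Hspa1a and Hspa1b summed to 49.6 and 16.3 CPM there, against 12.6 and 13.6 CPM in cells. In replicate 1 the same barcodes held Sftpc at 11185 CPM and Scgb1a1 at 3914 CPM, genes of lung epithelium, with Apod, Lyz2 and Cd74 at 5012, 2414 and 1588 CPM. In cells Sftpc was at 0.328 CPM and Scgb1a1 at 0.109 CPM. In replicate 2 the leading genes were others, Tecpr2, Gm5535 and Ttn at 2086, 956 and 789 CPM. Of the low barcodes, 548 occurred in both libraries, and 65 and 35 were cells of the other library. The source of this signal was not tested.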

How the results depend on the processing

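Of 81 counts of calls recomputed, 75 stayed within 1.5 times the value reported. Subtracting free RNA with the profile of barcodes of 10 to 100 UMIs gave 21 calls over all classes against 60, 1 in podocyte-like cells, 1 in proximal tubule-like cells and 2 between them; with barcodes of 300 to under 1000 UMIs, a profile added after the data were seen, there were 53. At most 10% mitochondrial UMIs, and Scrublet doublets removed, each left 3 calls between podocyte-like and proximal tubule-like cells. With no replicate block there were 58 calls in all and 5 between the 2 classes; without it Dusp1 between them (adjusted p = 0.0814, edgeR), Junb in proximal tubule-like cells (adjusted p = 0.0627) and Ier2 in distal convoluted or connecting tubule-like cells were no longer called, and no other call of the 10 genes changed.

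In podocyte-like cells, proximal tubule-like cells and their direct comparison, no log2 difference that reversed was called in either setting. Among the calls in other classes, Junb in endothelial-like cells (-1.93) and mural-like cells (-1.99) reversed, uncalled, with the profile of 10 to 100 UMIs. Hspa1a in proximal tubule-like cells became -0.22 in DESeq2, -0.26 at 10000 UMIs, -0.38 at 10% mitochondrial UMIs and -0.27 without erythroid-like cells. Fos in podocyte-like cells became 0.20, 0.051 and 0.023 at 10000 UMIs, with that second profile and without erythroid-like cells. Atf3 in proximal tubule-like cells became 0.014, 0.81 and 0.24 at 10000 UMIs, at 10% mitochondrial UMIs and with the second profile. Dusp1 there became 0.11, 0.016 and 0.15 at 10000 UMIs, without erythroid-like cells and without the highest cells. Between the 2 classes Junb became 0.083 and Atf3 0.17 with the profile of 10 to 100 UMIs. The causes were not tested.

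Leaving out a library leaves no residual degrees of freedom, so counts of calls have no such value. In proximal tubule-like cells the difference of Fos was -2.96 without replicate 1 and -5.13 without replicate 2, of Egr1 -2.09 without replicate 1, and of Hspa1b 2.22 without replicate 2. Depth limits Fos, Fosb, Atf3 and, in podocyte-like cells, Hspa1a, which rest on few counts.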
